A study of Mus musculus with 5 samples.

Results

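Among 24046 gene symbols measured by bulk RNA-seq in sorted mouse hematopoietic stem cells (HSCs), 67 were higher in both Syncrip knockout libraries than in every control library by a set margin. They were chosen on the measured values themselves. A gene was taken when the lower of its 2 knockout values was at least 100 and exceeded the highest of its 3 control values by at least 75%, and Erdr1, which also met these limits, was left out. That every member was higher in the knockout libraries is therefore a property of the choice and not a finding, and no test of this difference is given for any member. Among the 13661 genes tested, 0.498% met the limits with Erdr1 included, and 1.09% (149 genes) met the mirrored limits, in which the lowest control value was compared with the higher knockout value. All 67 members passed the filter on low values, as the floor of 100 in both knockout libraries ensured.

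All donors carried Syncrip flox/flox alleles, with loxP sites around 2 exons of the gene. Control marrow was Mx1 Cre- (here WT, libraries WT 1, WT 2 and WT 3) and knockout marrow was Mx1 Cre+ (here KO, libraries KO 2 and KO 3). The marrow of 6 to 8-week-old donors was given to irradiated CD45.1 congenic recipients, and recipients of both groups received polyinosinic:polycytidylic acid (pIpC), which induces interferon and thereby the Mx1 promoter that drives Cre. HSCs of donor origin (CD45.2+, CD150+, CD48-, Sca1+, cKit+, Lin-) were sorted 9 weeks after transplantation and 3 weeks after pIpC. Mx1 Cre is active in many interferon-responsive cells and not in HSCs alone, and since Cre was present only in the KO group, the presence of Cre and the loss of Syncrip cannot be told apart here. The labels did not say how many animals gave each library.

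The values were read counts that the authors had divided by a size factor of each library, and they are called normalised read counts below. Total reads were 21748781 to 22779536 in the WT libraries, 18308876 in KO 2 and 12539599 in KO 3. Syncrip itself was at 1944, 1440 and 1794 in the WT libraries and at 294 and 343 in the KO libraries, a log2 difference of -2.43 ± 0.22 (SE; limma adjusted p = 0.0352), and it was the only gene called by limma (0.00732% of genes tested, at adjusted p under 0.05 and at least a 2-fold change). That call was lost without the filter on low values, after removal of a length and GC trend, and without WT 1, WT 2 or WT 3, and DESeq2 called 1061 genes. All 12 HSC markers examined were detected in every library. The summed level of these HSC markers was 19570 to 29980 in the WT libraries, 21920 in KO 2 and 41490 in KO 3, whereas that of 9 neutrophil markers was 1053000 to 1346000 in WT, 969900 in KO 2 and 479100 in KO 3. The neutrophil markers did not move alike, since Elane (107246) and Prtn3 (36288) were highest in KO 2. Nor did the HSC markers. In KO 3, Ptprc (1271) was below all WT values (3735 to 4635), Kit and Ly6a were within the WT range, and the others were above it. Gata2 was at 14815 in KO 3 against 2269 to 4973 in WT. KO 2 also stood apart by adipocyte transcripts. Its 12 adipocyte markers summed to 24720 against 3094 to 4394 elsewhere, and Ucp1, the uncoupling protein of brown fat, was at 5622 in KO 2 and at 0 in the other libraries. In bulk samples, fewer cells of a type and less RNA per cell cannot be told apart.

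HSCs are rare, mostly quiescent cells that give rise to all blood lineages. Their quiescence is held by cell cycle inhibitors and by niche signals such as Notch, Wnt and TGF-beta family ligands, their energy comes largely from glycolysis with restrained mitochondrial activity, and damage acts on them through p53. SYNCRIP is an RNA-binding protein that binds mRNAs and takes part in their splicing, stability and translation. The members belonged to 9 role groups. Among them were 4 genes of the p53 and stress response, 12 of signalling and the cell cycle, 7 of mitochondria and energy, 3 of lipid metabolism, 9 of histones and chromatin, 8 of the cell surface and matrix, 8 channels, motors and scaffolds, 2 other enzymes and 14 short, noncoding or little-described loci.

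Sequences of the leading members are shown first, because the feature that the members shared most plainly, and that the choice did not use, was a high content of guanine and cytosine (GC). The first 150 coding bases of the longest coding transcript (GENCODE M21, build GRCm38) are given for the 3 members with the largest ratio of the lower KO to the highest WT value, and for the 2 genes, Syncrip aside, with the largest mirrored ratio. CpG dinucleotides are in capitals.
Phlda3 (gene at chr1:135766119-135769136, + strand): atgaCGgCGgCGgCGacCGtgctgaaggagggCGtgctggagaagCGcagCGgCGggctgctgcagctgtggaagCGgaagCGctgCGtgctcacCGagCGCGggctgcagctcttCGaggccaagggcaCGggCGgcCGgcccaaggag
Slc25a47 (gene at chr12:108836046-108856815, + strand): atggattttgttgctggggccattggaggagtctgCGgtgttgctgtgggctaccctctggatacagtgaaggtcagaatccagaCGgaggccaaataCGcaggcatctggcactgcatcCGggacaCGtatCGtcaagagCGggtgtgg
Jag2 (gene at chr12:112907819-112929776, - strand): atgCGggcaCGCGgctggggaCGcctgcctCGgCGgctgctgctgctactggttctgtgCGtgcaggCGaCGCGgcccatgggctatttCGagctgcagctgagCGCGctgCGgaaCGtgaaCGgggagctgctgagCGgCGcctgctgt
Bmx, lower in both KO libraries (gene at chrX:164192842-164258193, - strand): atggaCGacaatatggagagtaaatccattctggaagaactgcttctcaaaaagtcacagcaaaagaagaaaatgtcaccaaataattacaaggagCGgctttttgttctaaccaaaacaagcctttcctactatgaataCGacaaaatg
Tfpi, lower in both KO libraries (gene at chr2:84432855-84476775, - strand): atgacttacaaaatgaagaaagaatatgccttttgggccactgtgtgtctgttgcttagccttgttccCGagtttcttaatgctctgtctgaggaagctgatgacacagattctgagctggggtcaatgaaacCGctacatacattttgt
These stretches held 19 CpG in Phlda3, 7 in Slc25a47 and 18 in Jag2, against 3 in Bmx and 2 in Tfpi. Their GC content was 72.67%, 56.67% and 70% in the 3 members and 36.67% and 42.67% in the other pair. Bmx, a tyrosine kinase, was at 147, 170 and 273 in the WT libraries and at 27.8 and 25.8 in KO, and Tfpi, an inhibitor of coagulation, was at 333, 208 and 207 in WT and at 38 and 51.6 in KO.

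The promoters of Jag2 and Phlda3 are shown because these were the 2 members with a promoter in the RefSeq table (build GRCm38.p6) whose KO mean was highest relative to the WT mean. Each window runs from 250 bases before to 50 bases after the transcription start, on the strand of the gene, with GC boxes (GGGCGG on either strand) in capitals.
Jag2, chr12:112929446-112929745, - strand: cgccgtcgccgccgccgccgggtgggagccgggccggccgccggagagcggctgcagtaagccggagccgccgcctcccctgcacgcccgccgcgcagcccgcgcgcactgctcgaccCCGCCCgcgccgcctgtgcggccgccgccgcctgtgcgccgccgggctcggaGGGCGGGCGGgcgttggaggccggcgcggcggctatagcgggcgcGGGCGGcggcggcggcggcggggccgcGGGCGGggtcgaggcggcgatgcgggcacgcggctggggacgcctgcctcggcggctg
Phlda3, chr1:135765835-135766134, + strand: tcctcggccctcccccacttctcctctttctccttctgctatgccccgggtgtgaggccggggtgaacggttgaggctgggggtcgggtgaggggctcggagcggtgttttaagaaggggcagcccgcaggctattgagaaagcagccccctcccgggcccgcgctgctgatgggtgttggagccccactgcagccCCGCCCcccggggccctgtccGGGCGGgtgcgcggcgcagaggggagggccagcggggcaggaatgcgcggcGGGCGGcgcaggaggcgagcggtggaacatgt
The Jag2 window was 86.0% GC and held 5 GC boxes, and that of Phlda3 was 71.67% GC and held 3. GC boxes are common, and 63.2% of the 10708 tested genes with a promoter in the table had at least 1. Promoters were matched for only 53 of the 67 members, and no comparison over the members is made here. Nothing is drawn from the boxes of these 2 windows.

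Over the members, transcript composition stood far from that of the genes tested. The longest transcript had a median GC content of 58.02% in the 65 members with a GENCODE match (quartiles 53.87% and 60.85%), 49.89% in 13515 tested genes (45.02% and 54.64%) and 41.29% in the 149 genes of the mirrored limits (39.34% and 44.02%). Of the 65 members, 43 (66.15%) lay above the upper quartile of the tested genes, and none of the 149 mirrored genes did. Coding sequences showed the same order, with medians of 60.68% in 60 members, 53.16% in 12704 tested genes and 44.72% in 146 mirrored genes. At the third codon position, which varies most freely, the medians were 71.2%, 60.86% and 45.8%. The members were also shorter, with a median length of 2020 bases against 3257 in tested genes and 3958 in mirrored genes.

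The order by GC content ran through all genes tested. When they were divided into 10 equal bins by transcript GC content, the share with both KO values above all WT values went from 2.44% in the lowest bin to 60.72% in the highest, and the share with both below all WT values went from 62.13% to 1.11%. The highest bin held 33 of the 65 members and the lowest 2 bins held none. In KO 2 the median log2 difference from the WT mean went from -0.545 in the lowest bin to 0.469 in the highest, and in KO 3 from -0.993 to 1.02. The WT libraries differed along the same axis by less. In WT 2 the median difference from the other WT libraries went from -0.332 to 0.224, and in WT 1 it ran the other way, from 0.277 to -0.078. After the linear dependence on log2 transcript length and GC content had been subtracted in each library, 61 of the 65 members had both KO values above all WT values (17.2% of all genes did) and 17 exceeded them by at least 75%. The members were chosen for this very difference, so a high count was to be had from the choice. Among these 17 were Phlda3, Slc25a47, Uqcrq, Aldh5a1, Jag2, Hes1, Acvr2b, Ccnd1, C130036L24Rik, 2300009A05Rik, H2afy2, Hist3h2a, Mpdz, Adamtsl5, Chpf and Parm1. Apc2, Fam195a, Scand1 and Mir762 no longer lay above all WT values. GC content and group moved together in these libraries, and their parts in the members' levels cannot be told apart.

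**Figure D1:**
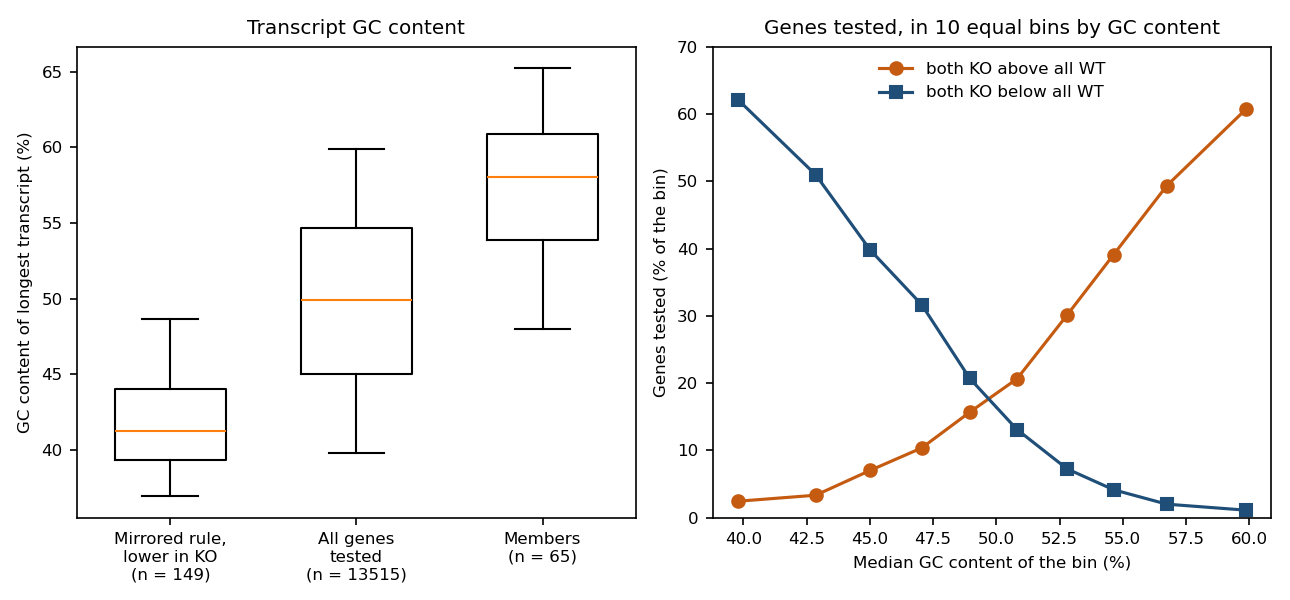
Left, GC content of the longest transcript (per cent) for the 149 genes of the mirrored limits, 13515 genes tested and 65 members, as boxes of the median and quartiles with whiskers from the 5th to the 95th percentile. Right, percentage of genes in each of 10 equal bins by GC content with both KO values above (circles) or below (squares) all WT values, against the median GC content of the bin. The members' median of 58.02% lay above the upper quartile of all genes, and the circles go from 2.44% to 60.72%.

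The 2 KO libraries did not give the members alike. The lower KO value was 1.76 to 8.01 times the highest WT value, with a median of 1.97, and 31 members reached 2 times, 6 reached 3 times and 1, Phlda3, reached 4 times. Relative to the WT mean, members were 1.84 to 18.5-fold higher in KO 2 (median 2.43) and 1.91 to 17.1-fold higher in KO 3 (median 3.60). KO 3 was the higher of the pair for 53 members and KO 2 for 14. The median log2 ratio of KO 3 to KO 2 was 0.394 over the members and -0.004 over all genes tested. For 27 members KO 3 exceeded KO 2 by at least 1.5-fold, while only Phlda3, Pald1 and Parm1 were at least 1.5-fold higher in KO 2. Together the members took 0.155%, 0.148% and 0.137% of all reads in the WT libraries, 0.343% in KO 2 and 0.420% in KO 3.

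**Figure D2:**
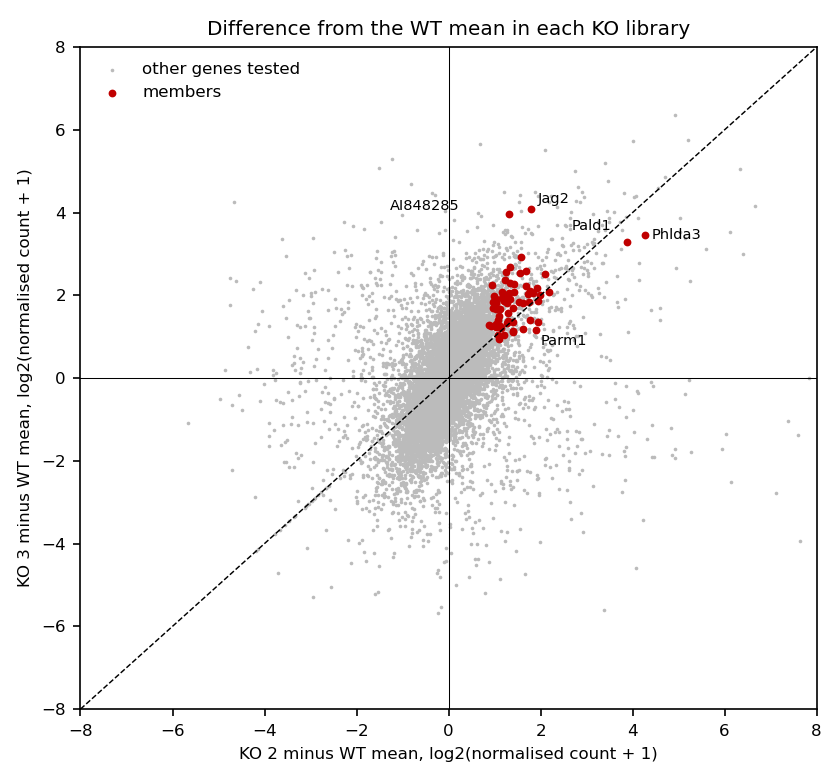
Difference of each gene from the mean of the 3 WT libraries in KO 2 (horizontal) and KO 3 (vertical), in log2(normalised count + 1). Members are red, other genes tested are grey, and the dashed line marks equal differences. Most members (53 of 67) lie above the line, with Jag2 and AI848285 farthest above it and Phlda3, Pald1 and Parm1 below it.

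The margin of choice was narrow for many members. Just inside the ratio lay Mir762 at 1.76, Rrad at 1.78 and Parm1 at 1.79, and just outside it lay Hist1h2ae at 1.748, Plekhf1 at 1.748 and Dohh at 1.749. Just above the floor of 100 lay Gm10584 and Snord55, both at 100.7, and just under it lay Pycr1 at 99.7, Grap at 98.7 and Tbc1d16 at 96.6.

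**Figure D3:**
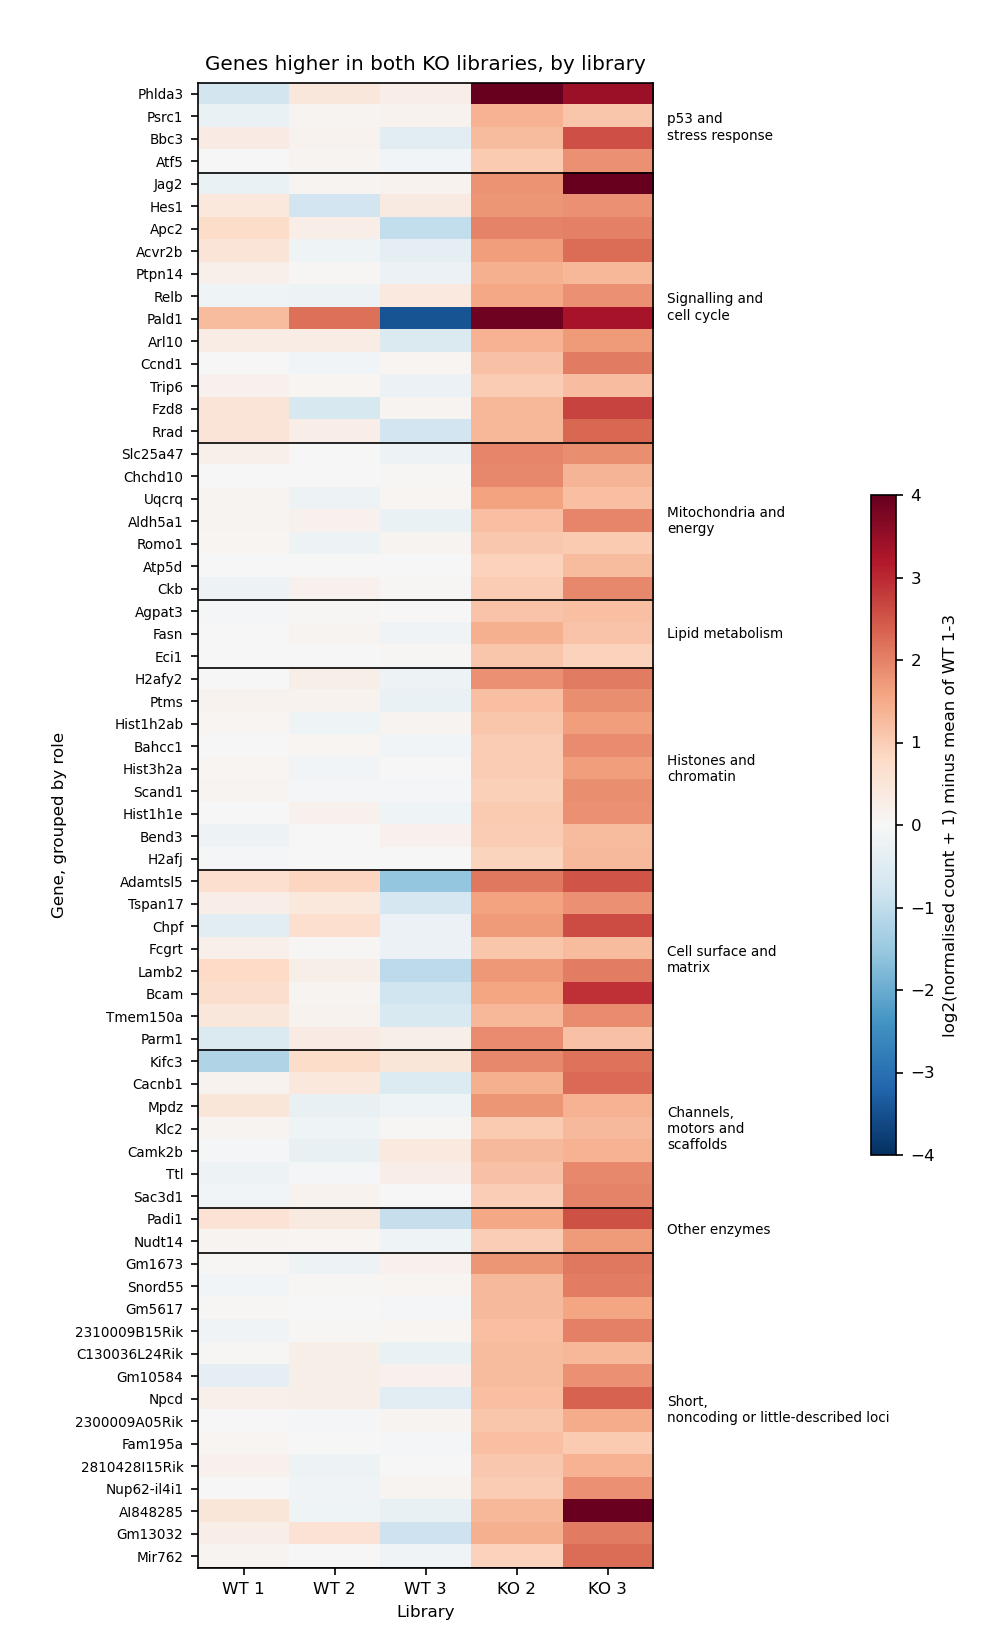
Each row is 1 of 66 members, grouped by role, and each column a library. Colour gives log2(normalised count + 1) minus the mean of WT 1, WT 2 and WT 3, with red for higher and blue for lower. KO 2 and KO 3 are red throughout, as the choice of members fixes, and KO 3 is the darker column for 53 of them.

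Of the p53 and stress response genes, Phlda3 had the widest gap of all members. PHLDA3 is a p53-induced protein that keeps AKT from the membrane. Phlda3 was at 35.8, 84.2 and 73.7 in WT 1, WT 2 and WT 3, then 1191 in KO 2 and 674 in KO 3. The lower KO value was 8.01 times the highest WT value, and this gap remained the widest after removal of the length and GC trend. Bbc3, which encodes the BH3-only killer protein PUMA, was at 255, 225 and 150 in WT, 490 in KO 2 and 1223 in KO 3. The larger part of its difference came from KO 3. Psrc1, a p53-regulated microtubule protein, was at 304, 397 and 409 in WT and at 963 and 793 in KO. Atf5, a transcription factor of the integrated stress response, was at 91.6, 100.7 and 86.6 in WT, 191 in KO 2 and 331 in KO 3.

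**Figure D4:**
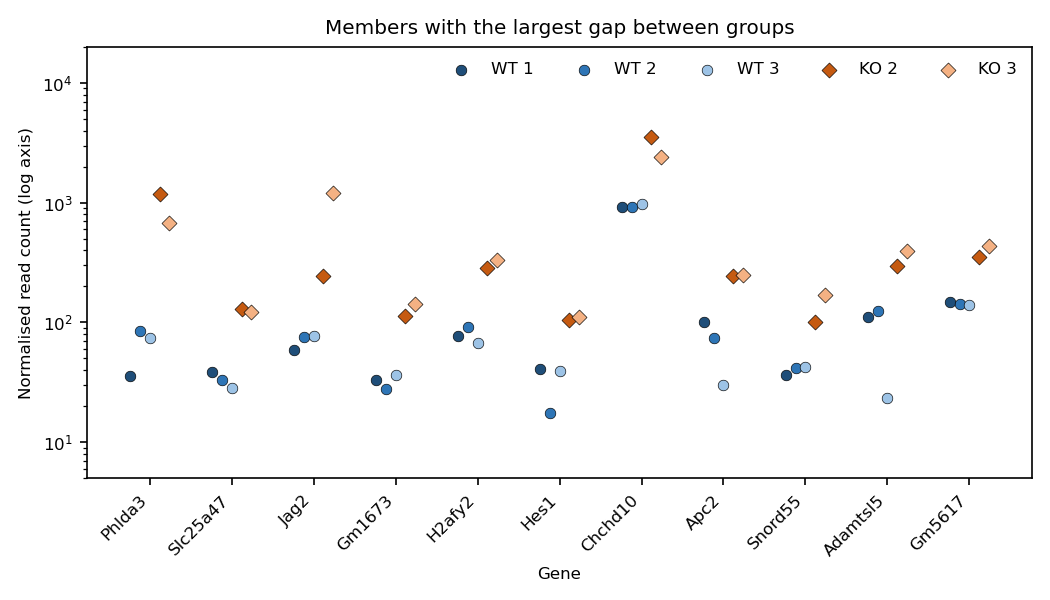
Normalised read count (log axis) in each library for 11 of the 12 members with the largest ratio of the lower KO to the highest WT value, with WT libraries as blue circles and KO libraries as orange diamonds. The groups are apart for all 11, by the choice of members. Phlda3 shows the widest gap, from 84.2 to 674, and Jag2 the widest spread between KO libraries, from 245 to 1200.

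The other p53 targets did not share one direction. The lists used below hold whole families and pathways to which members belong, and the members are left out of their counts. Of 34 other p53 targets tested, 10 (29.4%) had both KO values above all WT values and 9 (26.5%) had both below, where 23.9% and 23.2% of all genes tested did. Cdkn1a, which encodes the cell cycle inhibitor p21, was at 67.4, 155 and 68.6 in WT and at 388 and 158 in KO, a log2 difference of 1.46 ± 0.53 that did not pass the test (limma adjusted p = 0.128). Trp53inp1, a p53-induced stress protein, was at 586, 321 and 716 in WT and at 240 and 77.5 in KO, a log2 difference of -1.90 ± 0.51 (limma adjusted p = 0.0862). Of the 22 other genes of the integrated stress response, 9 lay above and 4 below all WT values.

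Signalling genes formed the second largest group of members, and KO 3 was the higher KO library for 10 of the 12. Jag2, a Notch ligand, was at 58.3, 75.5 and 77.1 in WT, 245 in KO 2 and 1200 in KO 3, a 4.90-fold difference within the KO group. Hes1, a repressor that Notch induces, was at 40.8, 17.4 and 39.4 in WT and at 105 and 111 in KO. Hes1 varied little within KO, whereas WT 2 was less than the other WT libraries. Jag1, the other Jagged ligand, was looked at after its values were seen. It was at 87.4, 95.5 and 88.3 in WT, 46.3 in KO 2 and 7.59 in KO 3, below all WT values in both (log2 difference -2.18 ± 0.73, limma adjusted p = 0.110). Of 31 other Notch genes tested, 11 (35.5%) lay above and 6 (19.4%) below all WT values, where 23.9% and 23.2% of all genes did. Once gene length and GC content were corrected for, the balance turned, to 4 (12.9%) above and 7 (22.6%) below, where 17.2% and 18.6% of all genes lay. The most positive difference among those with a mean of at least 100 was that of Numbl (1.42 ± 0.63, limma adjusted p = 0.183).

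Of the Wnt genes, Fzd8, a Frizzled receptor, was at 58.3, 26 and 44.6 in WT, 105 in KO 2 and 269 in KO 3. Apc2, a relative of the beta-catenin destruction scaffold APC, was at 102, 73.8 and 30.0 in WT and at 246 and 248 in KO. Its KO values were alike, but WT 3 was far below WT 1. Ccnd1, the D-type cyclin that starts progress through G1, was at 127, 115 and 132 in WT, 282 in KO 2 and 530 in KO 3. Of 33 other Wnt genes, 10 (30.3%) lay above and 2 (6.06%) below all WT values, where 23.9% and 23.2% of all genes did, but with the length and GC trend removed the counts were 4 above and 3 below. Of 18 other G1 cyclins and kinases, 5 lay above and 3 below, among them Ccne2, a cyclin of the G1 to S transition, at 1310, 854 and 1481 in WT and at 450 and 204 in KO (log2 difference -1.96 ± 0.37, limma adjusted p = 0.0815).

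Acvr2b, a type II receptor for activins, was at 71.6, 44.3 and 38.6 in WT, 161 in KO 2 and 235 in KO 3, and of 20 other receptors, ligands and SMADs of the activin, BMP and TGF-beta pathways 4 lay above and 5 below all WT values. Relb, the partner of p52 in the noncanonical NF-kB pathway, was at 91.6, 89.4 and 138 in WT and at 304 and 372 in KO. Nfkb2, the gene of the p52 precursor, is no member and was at 537, 636 and 529 in WT and at 1105 and 1040 in KO (log2 difference 0.92 ± 0.21, limma adjusted p = 0.0815). Birc2, a ubiquitin ligase that restrains that pathway, was at 837, 858 and 770 in WT and at 396 and 317 in KO (log2 difference -1.21 ± 0.22, limma adjusted p = 0.0815). Neither difference passed the test, although the groups did not overlap for either gene, and of 22 other NF-kB genes 9 (40.9%) lay above and 7 (31.8%) below all WT values, where 23.9% and 23.2% of all genes did. Once gene length and GC content were corrected for, 2 (9.1%) lay above and 7 (31.8%) below, where 17.2% and 18.6% of all genes did.

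The remaining signalling members were Ptpn14, a tyrosine phosphatase, Trip6, a LIM-domain adaptor, Rrad, a Ras-related GTPase, Pald1, a protein with phosphatase domains, and Arl10, an ARF-like GTPase. Ptpn14, Trip6 and Arl10 were 2.02 to 2.66-fold above the WT mean in KO 2 and 2.36 to 3.14-fold above it in KO 3, and Rrad was 2.38 and 4.62-fold above it. Pald1 was the only member at 0 in a library, with 25, 48.6 and 0 in WT and 159 and 105 in KO.

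Mitochondrial and energy genes included some of the most abundant members, and 4 of the 7 were higher in KO 2 than in KO 3. Chchd10, a protein of the mitochondrial cristae, was at 916, 915 and 968 in WT, 3569 in KO 2 and 2404 in KO 3. Uqcrq, a subunit of respiratory complex III, was at 1874, 1480 and 1832 in WT and at 5287 and 3940 in KO. Atp5d, a subunit of the ATP synthase, was at 4724, 4646 and 4710 in WT and at 8861 and 11207 in KO, the highest level of any member. For these 3 genes the WT libraries lay within 1.27-fold of each other. Romo1, a small protein of the inner membrane, was at 814, 671 and 823 in WT and at 1621 and 1589 in KO. Slc25a47, a mitochondrial carrier, was at 38.3, 33.0 and 28.3 in WT and at 131 and 121 in KO. Ckb, the brain-type creatine kinase, was 2.02-fold above the WT mean in KO 2 and 3.79-fold in KO 3, and Aldh5a1, which breaks down GABA, 2.31 and 3.92-fold.

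The families around these members leaned to higher values. Of 27 other subunits or assembly factors of complexes III and V, 10 (37.0%) lay above all WT values and 0 below, and of 27 other inner membrane and cristae proteins 12 (44.4%) lay above and 2 below, where 23.9% and 23.2% of all genes did. After the length and GC trend had been removed, these counts were 11 above and 0 below for complexes III and V and 14 above and 0 below for inner membrane proteins, where 17.2% and 18.6% of all genes lay above and below. Their median GC content was 50.02% and 49.1%, close to that of all genes. Examples were Uqcr11 of complex III, with a log2 difference of 0.87 ± 0.25 (limma adjusted p = 0.0896), and Timm13, an import chaperone, with 0.73 ± 0.16 (limma adjusted p = 0.0815). No gene of either list passed the limma test. Adipocyte and brown adipocyte transcripts, which were high in KO 2, are rich in mitochondrial and lipid genes. In KO 3, 6 of the 12 adipocyte and 6 of the 10 brown adipocyte markers were at 0, among them Adipoq, Plin1, Cidec, Cfd and Ucp1. In each WT library, 2 or 3 adipocyte markers and 6 brown adipocyte markers were at 0. The adipocyte sum of KO 3 was 4394, above that of every WT library. Most of it was Pnpla2, a triglyceride lipase, at 3438 against 2150 to 2334 in WT. No other adipocyte marker was above all WT values in KO 3, and Fabp4 (1.52) and Lpl (60.7) were below them. The 10 brown adipocyte markers summed to 141.2 in KO 3, less than in each WT library (153.2, 237.8 and 218.5). Among them, Kcnk3 was at 34.9 and Ppara at 16.7 in KO 3, against at most 9.99 and 0 in WT. Dio2 was at 88.1 in KO 3 against 131 to 223 in WT, and Elovl3 at 0 against 7.81 to 11.1. In KO 3, Chchd10 was 2.58-fold, Uqcrq 2.28-fold, Slc25a47 3.66-fold and Romo1 2.07-fold above the WT mean, as values that the choice of members used, and the part of adipocyte transcripts in the mitochondrial values was not tested.

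The lipid members were Fasn, Agpat3 and Eci1, all abundant and all with close values in the KO pair. Fasn, which makes palmitate from acetyl and malonyl units, was at 3802, 4070 and 3438 in WT, 9974 in KO 2 and 8247 in KO 3. Agpat3, an acyltransferase of phospholipid synthesis, was at 879, 944 and 932 in WT and at 2011 and 2106 in KO. Eci1, an isomerase of the oxidation of unsaturated fatty acids, was at 1022, 1022 and 1075 in WT and at 2237 and 1986 in KO. Of 27 others of fatty acid and phospholipid synthesis, 4 (14.8%) lay above and 8 (29.6%) below all WT values, where 23.9% and 23.2% of all genes did. Once gene length and GC content were corrected for, 3 (11.1%) lay above and 9 (33.3%) below, where 17.2% and 18.6% did. Of 20 others of fatty acid oxidation, 7 lay above and 0 below (8 and 0 with the trend removed), with Acads, the short-chain acyl-CoA dehydrogenase, at a log2 difference of 0.97 ± 0.21 (limma adjusted p = 0.0815). The part of the adipocyte transcripts of KO 2 in these values was not tested, and in KO 3 the 3 members were 1.91 to 2.29-fold above the WT mean.

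Histone and chromatin members were higher in KO 3 than in KO 2 in all 9 cases. H2afj, the replacement histone H2A.J, was at 2615, 2744 and 2704 in WT, 4944 in KO 2 and 6543 in KO 3. Hist1h1e, a linker histone, was at 869, 987 and 780 in WT and at 1794 and 3124 in KO. H2afy2, which encodes macroH2A2, was at 77.4, 92.0 and 67.7 in WT and at 283 and 331 in KO, the widest gap of the group. Of the core histone genes, Hist1h2ab was at 102, 85.9 and 105 in WT and at 213 and 311 in KO, and Hist3h2a at 178, 155 and 168 in WT and at 340 and 529 in KO.

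The rest of the histone family had the most lopsided count of any list. Of 64 other histone genes tested, 50 (78.1%) had both KO values above all WT values and 0 had both below. Over all genes tested, 23.9% lay above and 23.2% below. None passed the limma or the edgeR test, 17 had an unadjusted limma p under 0.05, all of them higher in KO, where 13.3% of all genes were, and DESeq2 called 8 as higher, where it called 4.11% of all genes. H1fx, a linker histone, was at 798, 636 and 395 in WT, 1251 in KO 2 and 4746 in KO 3 (log2 difference 2.06 ± 0.52, limma adjusted p = 0.0818), and Hist1h2ae was at 1052, 411 and 893 in WT and at 1982 and 1839 in KO (1.39 ± 0.37, limma adjusted p = 0.0853). The other histone genes had a median GC content of 57.5%, and after the length and GC trend had been removed 31 of 64 (48.4%) lay above and 4 (6.2%) below all WT values, where 17.2% and 18.6% of all genes did. Histone genes are near-identical copies of each other in part, and reads may have been shared between them.

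The other chromatin members were Scand1, a SCAN-domain protein, Ptms, the histone-binding parathymosin, Bahcc1, a BAH-domain chromatin reader, and Bend3, a repressor that binds heterochromatin. Scand1 was at 1392, 1259 and 1255 in WT and at 2539 and 4681 in KO. Ptms, Bahcc1 and Bend3 were 2.02 to 2.29-fold above the WT mean in KO 2 and 2.41 to 3.72-fold in KO 3.

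For 6 of the 8 cell surface and matrix members the WT libraries differed by at least 2-fold, and WT 3 was the lowest WT library for 6. Bcam, a laminin receptor of the immunoglobulin family, was at 223, 148 and 78.0 in WT, 410 in KO 2 and 1052 in KO 3. Lamb2, a laminin beta chain, was at 117, 78.1 and 31.7 in WT and at 223 and 276 in KO. Adamtsl5, a secreted matrix protein, was at 111, 125 and 23.1 in WT and at 298 and 398 in KO. Of 13 other laminin chains and receptors, 2 (15.4%) lay above and 1 (7.69%) below all WT values, where 23.9% and 23.2% of all genes did. Chpf, which helps to build chondroitin sulfate, Fcgrt, the neonatal Fc receptor, Parm1, a mucin-like protein, Tspan17, a tetraspanin, and Tmem150a, a membrane protein, were 2.17 to 3.62-fold above the WT mean in KO 2 and 2.17 to 5.74-fold in KO 3. The 7 epithelial markers summed to 379 to 702 in WT, 584 in KO 2 and 1233 in KO 3, where Krt18 made up most of the sum at 1169, and Krt5, Krt14 and Cldn4 were at 0 in all libraries. The part of other cell types in these values was not tested.

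Several members are best known from neurons and muscle. Cacnb1, a calcium channel subunit, and Camk2b, a calmodulin-dependent kinase, were 2.60 and 2.43-fold above the WT mean in KO 2 and 4.69 and 2.60-fold in KO 3. The 10 neuron and glia markers summed to 2681 to 3263 in WT, 2647 in KO 2 and 3163 in KO 3, nearly all of it Mbp (2530 to 3146), and Snap25, Syt1, Map2 and Nefl were at 0 in every library. Tubb3 was low, at 5, 18.2 and 24 in WT and at 29.8 and 33.4 in KO. The 8 muscle markers summed to 189 to 283 in WT, 228 in KO 2 and 384 in KO 3. The motor and scaffold members were Kifc3 and Klc2 of the kinesin family, Mpdz, a protein of many PDZ domains, Ttl, which adds tyrosine to tubulin, and Sac3d1, a centrosome protein. Sac3d1 was at 959, 1134 and 1015 in WT, 2047 in KO 2 and 4114 in KO 3, and the others were 2.05 to 3.33-fold above the WT mean in KO 2 and 2.49 to 3.93-fold in KO 3. The other enzymes were Nudt14, which hydrolyses nucleotide sugars, and Padi1, a peptidylarginine deiminase, at 1.95 and 2.70-fold in KO 2 and 3.22 and 5.44-fold in KO 3.

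The last 14 members were short, noncoding or little described. Gm1673 was at 33.3, 27.8 and 36.0 in WT and at 112 and 141 in KO, and Gm5617 at 149, 142 and 139 in WT and at 355 and 431 in KO. Snord55, a small nucleolar RNA, was at 36.6, 41.7 and 42.0 in WT and at 100.7 and 169 in KO. AI848285 was at 241, 155 and 140 in WT, 436 in KO 2 and 2718 in KO 3, and its 6.24-fold difference was the widest within the KO pair. The remaining loci were 2310009B15Rik, C130036L24Rik, Gm10584, Npcd, 2300009A05Rik, Fam195a, 2810428I15Rik, Nup62-il4i1, Gm13032 and Mir762, which were 1.91 to 2.50-fold above the WT mean in KO 2 and 2.06 to 5.08-fold in KO 3.

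Mir762 had the most GC-rich transcript and stands within another gene. Its hairpin lies at chr7:127708487-127708562 (+ strand) and is 82.89% GC. All of its 76 bases overlap an exon of Bcl7c on the opposite strand. In the RefSeq sequences below, capitals mark the mature miRNA within the hairpin and the seed (bases 2 to 8) within the mature form.
Mir762 hairpin: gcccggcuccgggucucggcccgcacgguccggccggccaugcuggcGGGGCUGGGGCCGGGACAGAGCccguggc
mmu-miR-762: gGGGCUGGggccgggacagagc
Mir762 was at 405, 372 and 339 in WT, 710 in KO 2 and 1754 in KO 3, and Bcl7c was at 1509, 1479 and 1523 in WT, 2587 in KO 2 and 5402 in KO 3. Whether the counting used strand was not given in the sources used here, so reads of Bcl7c and of Mir762 cannot be told apart, and libraries of this kind are not made to capture mature miRNAs. Mir762 also turned direction when the length and GC trend was removed.

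Exons of 30 of the 65 placed members (46.2%) overlapped those of another annotated gene, for 26 of them (40.0%) on the opposite strand, where 39.3% and 32.5% of all placed genes tested did. Of the members, 10 shared at least 25% of their exon bases. Padi1 and Gm13032 overlap each other on opposite strands, and Gm13032, at 46.6, 59.0 and 21.4 in WT and 106 and 169 in KO, followed the values of Padi1 (53.3, 45.1 and 18 in WT and 105 and 211 in KO). Npcd shares all of its exon bases with Nptxr and Cbx6, and Cbx6 was at 1823, 1580 and 1085 in WT and at 2466 and 4397 in KO. Gm10584 overlaps Chst15, which was at 773, 1211 and 1178 in WT and at 970 and 828 in KO, both inside its WT range. Nup62-il4i1 names a read-through of adjacent genes. No member had counts identical to those of another symbol.

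Some members were neighbours in the genome. In GRCm38, 13 pairs that involved 23 members lay within 1 Mb of each other. How often other tested genes lie so close was not computed, so this count cannot show clustering. Jag2 and Nudt14 are 4514 bases apart on chromosome 12, and Apc2, Adamtsl5 and Atp5d lie within one stretch of chromosome 10. Relb and Bcam on chromosome 7 are 126692 bases apart, and Romo1 and Scand1 on chromosome 2 are 166049 bases apart. Chromosome 10 held 8 of the 65 placed members (12.31%, against 4.89% of tested genes), and chromosome 7 held 8 (12.31% against 7.71%).

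With the length and GC trend removed, 17.2% of all genes lay above and 18.6% below all WT values. The counts of the lists not yet given so were 6 above (17.6%) and 5 below (14.7%) of 34 p53 targets, 6 (27.3%) and 3 (13.6%) of 22 genes of the integrated stress response, and 4 (22.2%) and 5 (27.8%) of 18 G1 cyclins and kinases. They were 3 and 2 of 20 genes of the activin, BMP and TGF-beta pathways and 2 (15.4%) and 0 of 13 laminins and their receptors.

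Over all 13 lists, 141 of 356 genes that are no members (39.6%) had both KO values above all WT values and 47 (13.2%) had both below, where 23.9% and 23.2% of all genes tested did. Histones made up 50 of the 141, and without them 91 of 292 (31.2%) lay above and 47 (16.1%) below. After the trend had been removed, 98 of the 356 (27.5%) lay above, and 67 of the 292 (22.9%) without histones, where 17.2% of all genes did. The limma test called 0 of the 356. At an unadjusted limma p under 0.05, 78 were higher and 39 lower, where 13.3% and 14.5% of all genes were. edgeR on the recovered reads called 0 of the 356 and 0.0146% of all genes, and DESeq2 called 16 as higher and 9 as lower, with 4.11% and 4.61% of all genes called so.

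**Figure D5:**
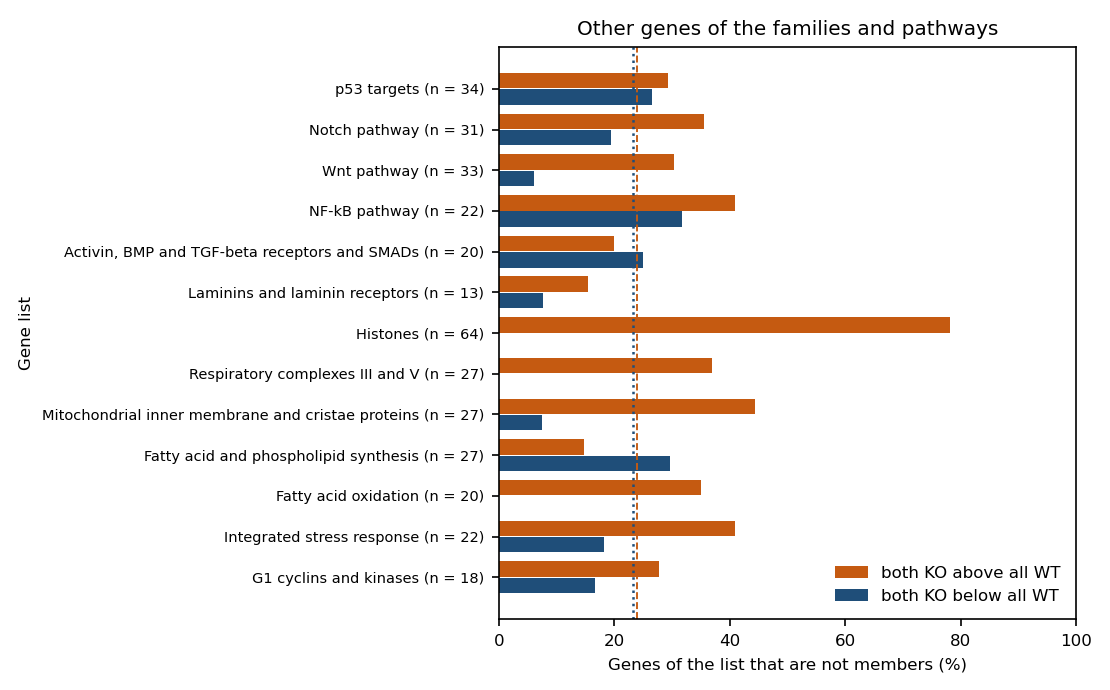
Percentage of the genes of each list, members left out, with both KO values above all WT values (orange bars) or below them (blue bars), with n the number of genes tested. The dashed and dotted lines mark the shares over all genes tested, 23.9% above and 23.2% below. Histones stand out with 78.1% above and 0 below, and fatty acid and phospholipid synthesis has more below (29.6%) than above (14.8%).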

How the data were processed

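Bulk RNA-seq libraries of sorted HSCs (3 WT, 2 KO) were made with the SMART-Seq v4 kit. The authors deposited 1 table of normalised signal, that is, read counts scaled by library-specific size factors, and the submitters' processing notes name STAR, featureCounts, DESeq2 and build mm10. Versions, annotation and strand setting were not given in the sources used here. The authors' own comparison (log2 fold changes and p-values) was not used.

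Each column held whole multiples of 1 step (100% of values, tolerance 0.001 of a read), and division by it gave the reads, which depth and count tests used. Intervals on reads would cover counting error only. The 13661 genes reaching 10 in 2 or more libraries entered limma 3.58.1 (R 4.3.3) on log2(value + 1), a scale that understates differences of low genes, with Benjamini-Hochberg adjustment. The study describes its replicates in general as biological, but how many animals gave each library was not given in the sources used here, and p-values measure the spread between these libraries. edgeR 4.0.16 and DESeq2 1.42.0 were run on the recovered reads as alternatives, beside another pseudocount, no filter, TMM scaling, a block, each library left out, other limits of choice, and removal of a length and GC trend. The fits were tested on simulated data. No pair of libraries of 1 group agreed within sampling noise.

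Of the symbols, 22804 matched GENCODE M21 (GRCm38, the mm10 assembly) by name and 843 by synonym. The members and lists were chosen with earlier results of these data known, the lists as whole families to which members belong. Members are named once each, except 1 that is not reported here. Each library's values are given for the 12 members with the largest ratio, for members of a list and for the 10 with the highest lower KO value, and for other members where neighbouring genes are compared. List genes named are among the 2 highest or 2 lowest differences with a mean of at least 100, unless stated.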

Additional observations from a re-analysis of the deposited data

How the results depend on the processing

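With 2 KO libraries, the lower of which had 12539599 reads, the members' own spread is poorly known. The number of genes called by limma was 1, and it was 2 with a pseudocount of 10, 0 without the filter, 1 with TMM scaling, 2 with edgeR, 1061 with DESeq2 (500 higher, 561 lower), 0 with the length and GC trend removed, and 0 to 2182 with 1 library left out, the last of these without KO 2, where KO 3 alone made up the group, the spread came from the WT libraries, and KO 3 was assumed to vary like them. Replicate numbers 2 and 3 occur in both groups. Deviations from the group means gave r = -0.059 for number 2 and -0.183 for number 3. With 2 KO libraries these deviations are exact opposites, so the values cannot show whether equal numbers mark pairs. With the number as a block, 6 genes were called (2 higher, 4 lower) and Syncrip kept its call (-2.34). Syncrip lost its call without the filter (-2.43, limma adjusted p = 0.0503), with the trend removed (-1.52, limma adjusted p = 0.136), and without WT 1, WT 2 or WT 3 (limma adjusted p = 0.210, 0.164 and 0.192), with a range of -2.55 to -2.32 over the 5 libraries left out.

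The number of members was 67, and it was 69 with TMM scaling (66 shared), 98 with a floor of 50, 42 with a floor of 200, 261 at 1.5 times and 31 at 2 times the highest WT value, and 41 with the trend removed (17 shared). With 1 library left out it was 81 to 1353, at 194 without WT 1, 141 without WT 2, 81 without WT 3, 1353 without KO 2 and 196 without KO 3, and all 67 remained each time, as the limits ensure. The members' median log2 difference was 1.55, 1.10 with the trend removed, and 1.30 to 1.85 with 1 library left out. Of the 65 single members with a length and GC content, 40 moved by more than the spread between libraries with the trend removed, such as Scand1 to 0.11, Fam195a to 0.23 and Romo1 to 0.34, and Mir762 turned direction (-0.69). Of the 67, 26 moved without KO 2 and 26 without KO 3. With the mean over transcripts in place of the longest, the median length was 1285 bases. List genes above all WT values numbered 98 to 197 over all alternatives.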

Other observations

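A further 31 genes met the same ratio with a lower KO value of 50 to 100 and so fell short of the floor. They are described after their values were seen. Hes5, a Notch-induced repressor like the member Hes1, was at 22.5, 25.2 and 21.4 in WT and at 66.8 in both KO libraries. Epha2, an ephrin receptor and p53 target, was at 0, 11.3 and 19.7 in WT and at 54.5 and 97.2 in KO. Mapk8ip1, a scaffold of JNK signalling, had the widest gap of these genes, at 3.33, 3.47 and 0.857 in WT and 52.4 and 175 in KO. Kcns1, a potassium channel subunit, was at 0, 6.94 and 0 in WT and at 59.6 and 163 in KO. Il17rc, a receptor subunit for interleukin 17, was at 20, 25.2 and 9.43 in WT, 75 in KO 2 and 808 in KO 3, and most of its difference lay in KO 3. Nptxr, whose exons the member Npcd shares, was at 39.1, 39.9 and 17.1 in WT and at 88.4 and 118 in KO.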
